A study of Mus musculus with 10 samples.

Results

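The profibrotic macrophage genes examined here are Spp1, Gpnmb, Trem2, Fabp5, Cd9, Cd63, Arg1, Apoe and Pdgfa, 9 of the 33347 mouse genes in the deposited count table, chosen by gene symbol and followed through all 10 lung libraries. All 9 were found in the table and all 9 had enough counts to be tested. Both groups were wild-type (WT) mice whose lungs had been injured with bleomycin, a DNA-damaging drug that causes lung fibrosis, and both had received bone marrow cells. In the ALDHbr group (n = 5 libraries) the transferred cells had high aldehyde dehydrogenase (ALDH) activity, and in the ALDHdim group (n = 5) they had low activity. The question posed by this design is how the lung after transfer depends on which kind of marrow cell was given. Lungs without bleomycin or without transferred cells were not analysed here, so each difference compares the 2 transfers only. The labels number the libraries within a group but do not say whether every library is of its own animal, and their spread, which every p-value is based on, may therefore be technical. Age, strain, dose and time after bleomycin were not stated in the labels.

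In injured lung, monocytes enter from blood and mature into macrophages that take up debris and lipid and gather in scars. Such cells are known for osteopontin (Spp1), for the lipid-sensing receptor Trem2 and its target program of lysosome and lipid-handling genes, and for platelet-derived growth factor, which acts on fibroblasts. Several of these genes are also made by other lung cells: Cd9, Cd63 and Pdgfa by epithelium, for example. The RNA came from whole lung tissue, so fewer cells of a type and less RNA per cell cannot be told apart.

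The start-site sequences of 3 of the genes whose levels differed most between libraries are shown with the short motifs found in them. In RefSeq on GRCm38.p6, 7 of the 9 genes had such windows (250 bases before to 50 after each annotated start), all but Fabp5 and Arg1. The Spp1 window shown, 250 bases on the plus strand at chr5:104434861-104435110, ends just before the first of its RefSeq starts. Its capitals mark GAGGAAGT, the core letters bound by the macrophage factor PU.1, at position -113 from that start. A later RefSeq window of Spp1, at chr5:104435942-104436241, holds no GAGGAAGT. The Trem2 window, 250 bases on the plus strand at chr17:48346151-48346400, holds TGAATCA at position -9, a match in capitals to the AP-1 letters TGANTCA. For Gpnmb, 30 bases on the plus strand at chr6:49036508-49036537 hold TGACTCA, another match to the AP-1 letters. It begins at position 9, with the RefSeq start base as 1. The gene start in GENCODE, 49036546, lies after these bases, so the match is upstream of that start. The last 30 bases of the window also begin before the GENCODE start. That 0 GENCODE transcripts of Gpnmb held all of them follows from this and is no separate check.
Spp1: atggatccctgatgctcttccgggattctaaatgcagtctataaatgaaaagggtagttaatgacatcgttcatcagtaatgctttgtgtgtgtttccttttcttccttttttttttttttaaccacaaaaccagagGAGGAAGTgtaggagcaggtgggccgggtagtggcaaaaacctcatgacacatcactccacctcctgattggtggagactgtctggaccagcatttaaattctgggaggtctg
Trem2: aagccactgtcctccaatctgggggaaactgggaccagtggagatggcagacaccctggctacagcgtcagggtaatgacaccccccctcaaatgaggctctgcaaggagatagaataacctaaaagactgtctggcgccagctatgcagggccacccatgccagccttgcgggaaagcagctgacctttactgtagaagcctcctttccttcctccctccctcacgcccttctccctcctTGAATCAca
Gpnmb: atagatgccaggggcaagTGACTCAtgagc
Both strands were searched. Of 32851 RefSeq windows of 300 bases, 3.2% hold GAGGAAGT, 7.81% hold TGANTCA and 7.15% hold CACGTG, the letters bound by lysosome regulators of the MiT/TFE family. No window of the 7 genes holds CACGTG, and the windows of Apoe, Cd63, Cd9 and Pdgfa hold none of the 3 motifs. A match describes these letters and not a bound site, and no match says only that the letters are not in these windows.

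Libraries held 588063 to 2002947 counts. ALDHbr 3 and ALDHbr 5 stood apart in the number of genes detected: thinned to 588063 counts each, they had 22836 and 21602 genes with a count, against at most 18123 in the other 8 libraries. ALDHbr 2 and ALDHdim 2 stood apart in the macrophage genes themselves. ALDHbr 2 was the library of lowest depth and ALDHdim 2 that of highest depth. Each library was counted as its own sample. Chi-square per degree of freedom between any 2 was 2.21 or more, so no 2 differed by counting error alone. That value cannot tell libraries of separate animals from repeat preparations of the same animal. Levels are given as CPM (counts scaled to a common library size) of the tested genes after TMM scaling, for each library in the order of its label number.

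Spp1 encodes osteopontin, a secreted phosphoprotein that binds integrins and CD44 and is a hallmark of scar-associated macrophages. On GRCm38 it lies on chromosome 5 from 104435118 to 104441050 on the plus strand. Its level was 731, 143, 1752, 2326 and 1551 CPM in ALDHbr libraries 1 to 5, and 942, 163, 868, 3251 and 3110 CPM in ALDHdim libraries 1 to 5. Library 2 was the lowest in both groups and library 4 the highest in both, and the groups overlapped throughout. Spp1 averaged 1301 ± 864 CPM after ALDHbr transfer and 1667 ± 1416 CPM after ALDHdim transfer (mean ± SD, 5 libraries a group), which gave a log2 fold change of −0.35 (SE 0.85). The 95% interval ran from 0.208-fold to 2.94-fold, so that neither a 3-fold lower nor a 2-fold higher level in ALDHbr recipients lay outside it. The estimate was 0.03 without ALDHdim 4 and 0.0013 without ALDHdim 5.

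Gpnmb and Trem2, membrane proteins of lipid-laden macrophages, had slightly higher mean levels in ALDHbr recipients, a difference smaller than either SD. Gpnmb, a glycoprotein of lysosomes and the cell surface (chromosome 6, 49036546 to 49070929, plus strand), was at 62.7, 5.87, 78.9, 77.1 and 78.3 CPM in ALDHbr libraries 1 to 5, and at 51.8, 13.1, 55.3, 81.7 and 65.9 CPM in ALDHdim libraries 1 to 5. Outside library 2 it lay between 51.8 and 81.7 CPM in both groups. The low value of ALDHbr 2 rests on 3 counts, for which counting error alone gives a 95% Poisson interval of 1.21 to 17.1 CPM. Gpnmb averaged 60.6 ± 31.3 CPM after ALDHbr transfer and 53.6 ± 25.4 CPM after ALDHdim transfer (log2 fold change 0.27, SE 0.51), and the estimate was −6.9e-05 without ALDHdim 2.

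Trem2, the receptor that signals through Tyrobp and Syk when it meets lipids (chromosome 17, 48346401 to 48354147, plus strand), was at 32.9, 11.7, 59.5, 67.7 and 70.8 CPM in ALDHbr libraries 1 to 5, and at 22.01, 5.55, 37.4, 69.0 and 85.2 CPM in ALDHdim libraries 1 to 5. It was again lowest in library 2 of each group, on 6 counts in ALDHbr 2 and 11 in ALDHdim 2. Libraries 4 and 5 were the highest in both groups. Trem2 averaged 48.5 ± 25.4 CPM after ALDHbr transfer and 43.8 ± 32.9 CPM after ALDHdim transfer (log2 fold change 0.21, SE 0.64), and the estimate was −0.10 without ALDHdim 2 and −0.09 without both ALDHbr 3 and ALDHbr 5.

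Arg1, arginase 1, splits arginine to ornithine, from which polyamines and proline are made, and marks alternatively activated mouse macrophages (chromosome 10, 24915221 to 24927484, minus strand). It was at 5.07, 1.96, 12.9, 23.6 and 10.0 CPM in ALDHbr libraries 1 to 5, and at 12.1, 2.52, 9.36, 41.3 and 33.5 CPM in ALDHdim libraries 1 to 5. ALDHdim 4 and ALDHdim 5 were above every ALDHbr library, while the other 3 ALDHdim libraries lay within the ALDHbr range. Depth limits this gene: ALDHbr 2 held 1 count (95% Poisson interval 0.0495 to 10.9 CPM) and ALDHdim 2 held 5. Arg1 averaged 10.7 ± 8.37 CPM after ALDHbr transfer and 19.7 ± 16.7 CPM after ALDHdim transfer, giving a log2 fold change of −0.77 (SE 0.72), which was the most distant from 0 among the 9 genes, with a 95% interval of 0.194-fold to 1.78-fold.

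Apoe and Cd63 varied over a narrower range. Apoe encodes apolipoprotein E, the lipid carrier that macrophages secrete and a ligand of Trem2 (chromosome 7, 19696109 to 19699188, minus strand). Its level was 893, 642, 855, 1394 and 1377 CPM in ALDHbr libraries 1 to 5, and 831, 518, 958, 1416 and 1547 CPM in ALDHdim libraries 1 to 5. Library 2 was lowest and libraries 4 and 5 were highest in both groups. The means were 1032 ± 337 CPM after ALDHbr transfer and 1054 ± 425 CPM after ALDHdim transfer (log2 fold change −0.03, SE 0.29; 95% interval 0.637-fold to 1.51-fold). Cd63, a tetraspanin of late endosomes and lysosomes (chromosome 10, 128900989 to 128912822, plus strand), was at 433, 509, 701, 703 and 697 CPM in ALDHbr libraries 1 to 5, and at 502, 360, 555, 717 and 814 CPM in ALDHdim libraries 1 to 5. Among ALDHbr libraries it was lowest in library 1 rather than 2, and in both groups libraries 3, 4 and 5 were the highest. The means were 609 ± 128 CPM after ALDHbr transfer and 590 ± 179 CPM after ALDHdim transfer (log2 fold change 0.05, SE 0.21; 95% interval 0.761-fold to 1.40-fold). A pseudogene, Cd63-ps, took 77 counts over all libraries, and reads shared with it could have been split.

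The remaining genes, Fabp5, Cd9 and Pdgfa, differed little between libraries. Fabp5, the epidermal fatty acid-binding protein that carries lipids inside the cell (chromosome 3, 10012548 to 10016607, plus strand), was at 79.8, 99.8, 116, 96.0 and 99.96 CPM in ALDHbr libraries 1 to 5, and at 85.9, 86.8, 91.0, 83.4 and 75.3 CPM in ALDHdim libraries 1 to 5. In 4 of 5 ALDHbr libraries it was above every ALDHdim library, and ALDHbr 1 lay among them. Fabp5 averaged 98.4 ± 13.0 CPM after ALDHbr transfer and 84.5 ± 5.83 CPM after ALDHdim transfer (log2 fold change 0.21, SE 0.13; 95% interval 0.962-fold to 1.39-fold; unadjusted p = 0.114 in edgeR's quasi-likelihood test), which was the smallest p of the 9.

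Cd9, a tetraspanin of the cell surface that organises integrins (chromosome 6, 125460266 to 125494791, minus strand), was at 581, 644, 569, 581 and 588 CPM in ALDHbr libraries 1 to 5, and at 608, 599, 646, 734 and 583 CPM in ALDHdim libraries 1 to 5. Unlike Spp1 it was highest in ALDHbr 2 among the ALDHbr libraries, and the log2 fold change was −0.10 (SE 0.12; 95% interval 0.778-fold to 1.12-fold). Pdgfa, the A chain of platelet-derived growth factor (chromosome 5, 138976014 to 138997370, minus strand), was at 258, 229, 226, 238 and 217 CPM in ALDHbr libraries 1 to 5, and at 260, 212, 245, 232 and 219 CPM in ALDHdim libraries 1 to 5. Its means were equal to 3 digits, 234 ± 15.4 CPM after ALDHbr transfer and 234 ± 19.3 CPM after ALDHdim transfer, with a 95% interval of 0.846-fold to 1.19-fold. Pdgfa overlaps the gene 6330403L08Rik on the opposite strand, which held 92 counts in all, and nothing stated whether reads were counted by strand.

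**Figure D1:**
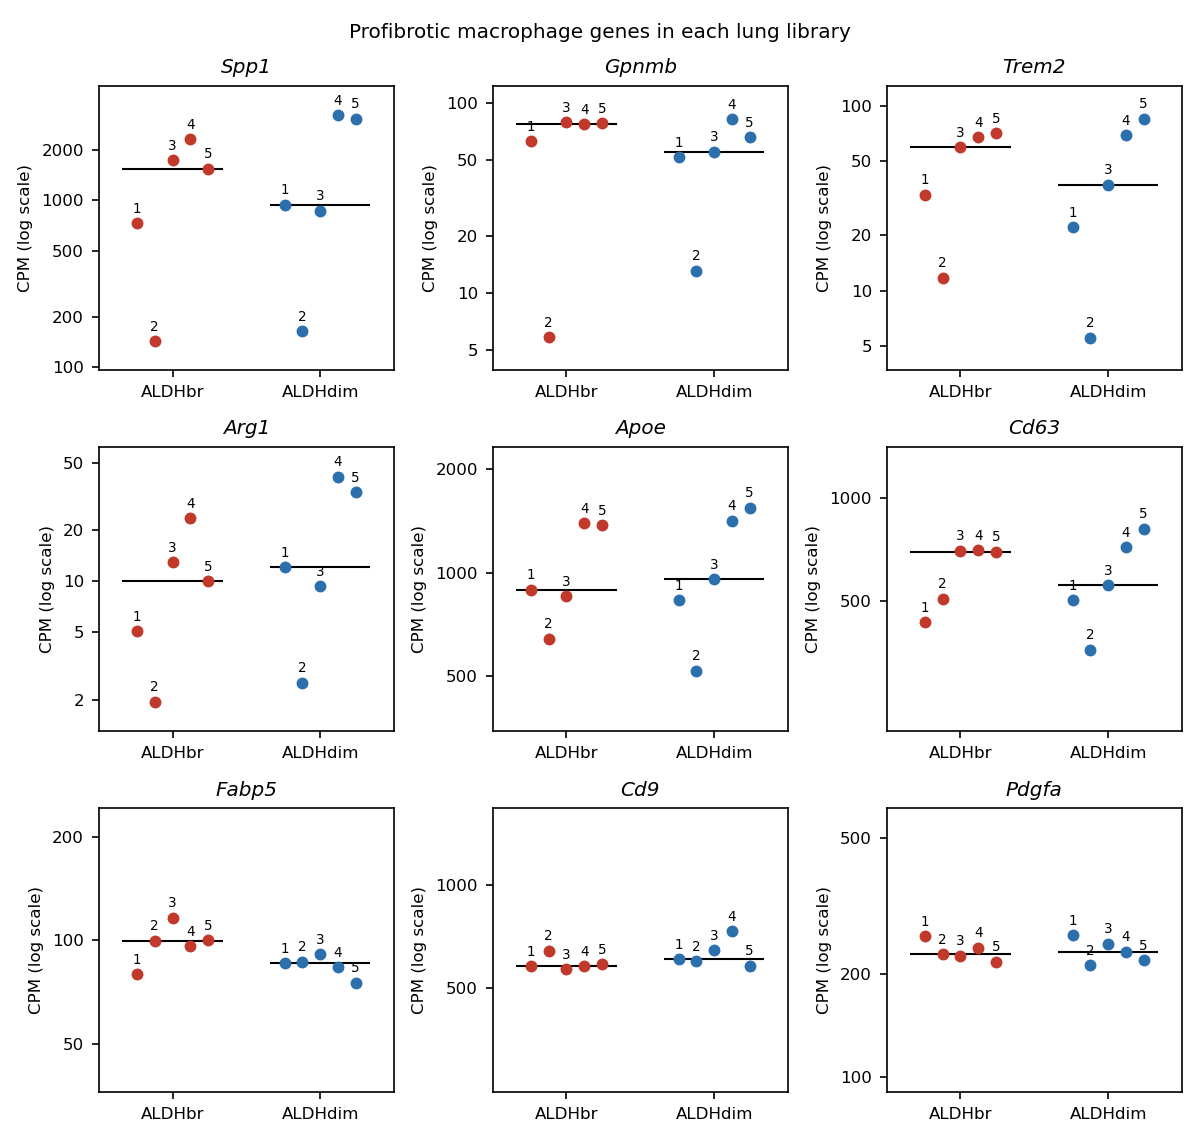
Level of each of the 9 genes in every library, in CPM on a log axis, with ALDHbr libraries left of ALDHdim libraries, each point marked by its label number and lines for the group medians. Library 2 is lowest in both groups for Spp1, Gpnmb, Trem2, Arg1 and Apoe, while Fabp5, Cd9 and Pdgfa stay within a narrow range.

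None of the 9 genes passed the threshold between ALDHbr and ALDHdim recipients. In edgeR's quasi-likelihood test of 10844 genes, 0 (0%) had a Benjamini-Hochberg adjusted p under 0.05, and each of the 9 genes had an adjusted p of 0.999. Unadjusted p fell under 0.05 for 402 genes (3.71%), of which 231 (2.13% of genes tested) were higher and 171 (1.58%) lower in ALDHbr recipients, and for 0 of the 9. DESeq2 also called 0 of 33347 genes, with 1465 at an unadjusted p under 0.05, and limma-voom 0 of 10844, with 690 at that level. For 58 genes (0.535%) the 2 groups did not overlap, and 0 of the 9 genes were among these. Of the 9 estimates, 5 were above 0 and 4 below, with a median log2 fold change of 0.0034, beside 51.9% above 0, 48.1% below 0 and a median of 0.0108 over all genes tested. The estimates of Cd63, Apoe and Pdgfa, all near 0, changed sign in 5 of 10 fits each when libraries were left out in turn. The intervals set what these libraries could show: for Spp1, Gpnmb, Trem2 and Arg1 a 2-fold difference in at least 1 direction lay inside the interval, whereas for Fabp5, Cd9, Cd63, Apoe and Pdgfa the whole interval lay within 2-fold.

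**Figure D2:**
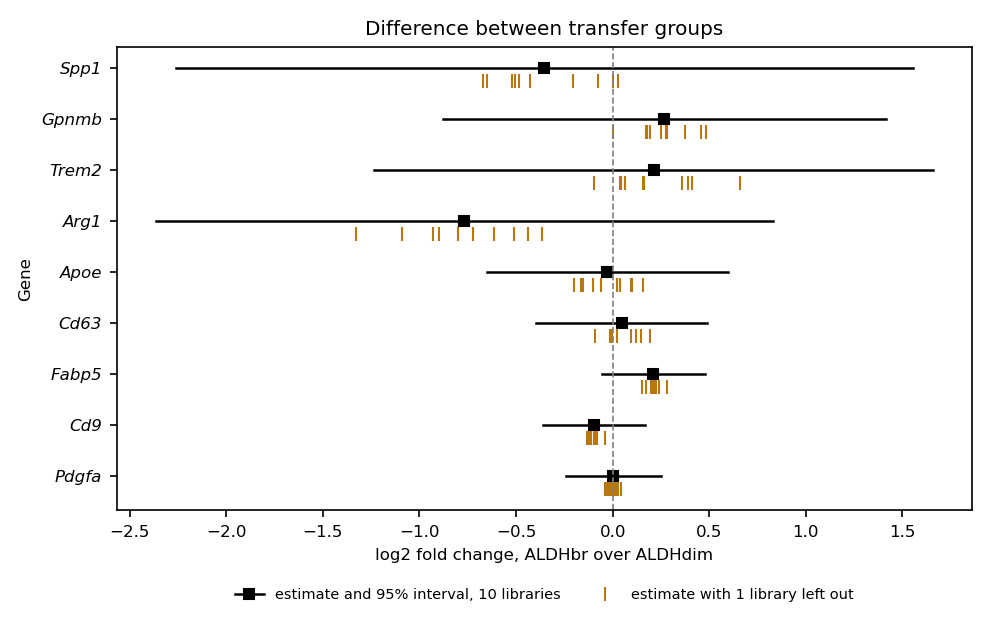
Log2 fold change of each gene, ALDHbr over ALDHdim, with bars for the 95% interval worked out from edgeR's test. Every interval crosses 0, and those of Spp1, Trem2 and Arg1 are several times wider than those of Fabp5, Cd9 and Pdgfa.

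The 9 genes ran from among the most to among the least variable between libraries of a group. Spp1 spanned 16.3-fold within the ALDHbr group, 19.9-fold within the ALDHdim group and 22.8-fold over all 10 libraries. Its biological coefficient of variation in edgeR's fit was 70.5%, the 5th highest of 10844 genes, and among the 1763 genes with a mean level of at least 100 CPM it had the 2nd highest SD of log2 CPM within groups. Arg1 (62.1%, rank 16), Trem2 (56.4%, rank 28) and Gpnmb (48.5%, rank 85) were also near the top, with spans over all libraries of 21.1-fold, 15.3-fold and 13.9-fold. Apoe (31.6%, rank 589; 2.99-fold) and Cd63 (24.7%, rank 1637; 2.26-fold) were intermediate. The coefficients of Cd9 (15.3%), Pdgfa (13.7%) and Fabp5 (12.6%) lay below the median of all genes tested, 16.8%, and these genes spanned 1.29-fold, 1.23-fold and 1.55-fold. The median coefficient of the 9 genes was 31.6%.

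**Figure D3:**
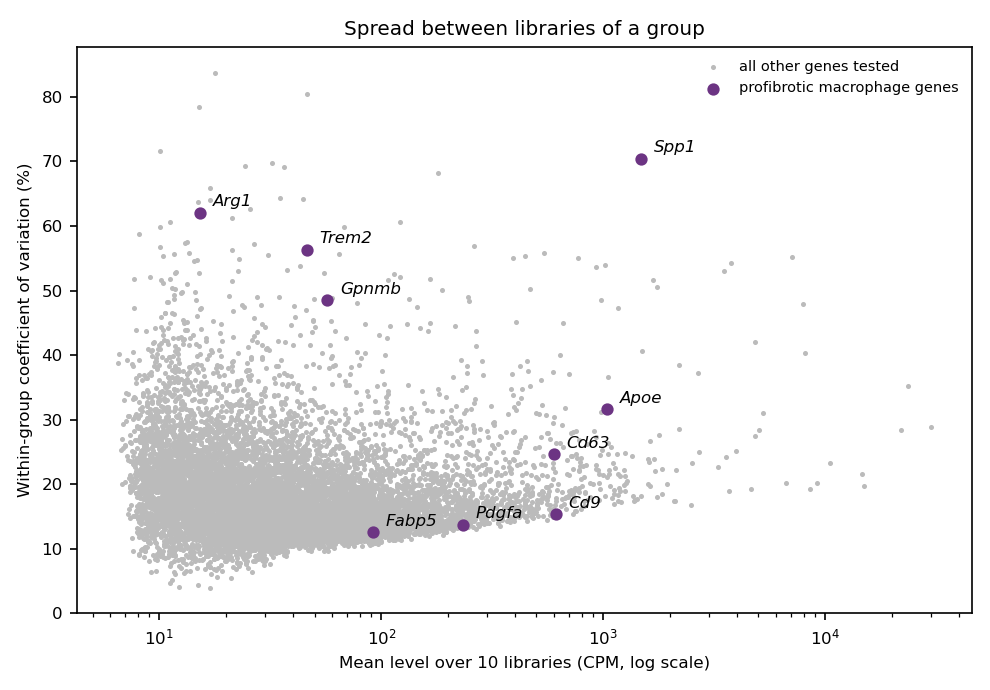
Biological coefficient of variation within groups, in percent, of every gene tested (grey) against its mean level over the 10 libraries in CPM on a log axis, with the 9 genes named. Spp1, Arg1, Trem2 and Gpnmb lie near the top of the cloud, and Fabp5, Cd9 and Pdgfa lie in its body.

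The genes with wide spread were high and low in the same libraries. Pearson's r of log2 CPM (prior count of 2) was computed for all 36 pairs of the 9 genes, and for each gene with Cd68, a lysosomal glycoprotein of macrophages, and with Col1a1, a chain of type I collagen, which makes 54 relations. Of these, 22 had an adjusted p under 0.05 over the 54 (permutation test, 2-sided, 100000 resamples), 14 of them among the 36 pairs. With Spearman's rho the numbers were 20 of 54 and 13 of 36. Every one of the 14 pairs joined 2 of Spp1, Gpnmb, Trem2, Arg1, Apoe and Cd63. The other pair among these 6, Gpnmb with Cd63, had r = 0.62 (adjusted p = 0.10 by permutation). With single libraries omitted, r for this pair ran from 0.46 without ALDHdim 2 (exact permutation adjusted p = 0.38) to 0.79 without ALDHbr 2 (0.016), the 1 omission of 10 in which it passed. The 21 pairs that involve Fabp5, Cd9 or Pdgfa had r between −0.23 and 0.26, and 0 passed. With group means removed, 21 of 54 relations and the same 14 pairs passed. These permutations took all 10 libraries as independent, although 7 of 10 correlated best with the same-numbered library of the other group. If the numbers mark a batch, the p-values of the relations are too small.

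Spp1 had r = 0.95 with Arg1 (rho = 0.99, adjusted permutation p = 0.00054 for r and 0.0011 for rho, the smallest of the 54) and 0.95 with Trem2 (rho = 0.85, adjusted permutation p = 0.0025 for r). Its r was 0.92 with Gpnmb (rho = 0.84), 0.91 with Apoe (rho = 0.84) and 0.84 with Cd63 (rho = 0.89), with adjusted permutation p of 0.0033, 0.0033 and 0.0080 for r. An r of at least 0.8 with Spp1 was reached by 3.76% of all other genes tested and by 5 of the 8 other genes of the set. Fabp5, Cd9 and Pdgfa had r of −0.11, 0.01 and 0.09 with Spp1.

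Part of this covariation rested on ALDHbr 2 and ALDHdim 2. Without both, an alternative chosen after seeing the data, 12 of 54 relations and 7 of 36 pairs passed (exact permutation test over the 8 libraries left). Among the 15 pairs of Spp1, Gpnmb, Trem2, Arg1, Apoe and Cd63, 5 passed, against 14 over all 10 libraries. The other 2 were among the 21 pairs that involve Fabp5, Cd9 or Pdgfa, of which 0 passed over all 10 libraries. Spp1 still passed with Arg1 (r = 0.93), Cd63 (0.92) and Trem2 (0.86). It did not pass with Apoe (r = 0.81, exact permutation adjusted p = 0.13) or Gpnmb (r = 0.70, adjusted p = 0.16). In the same 8 libraries Pdgfa ran opposite to Trem2 and to Cd63, with r = −0.90 for each (exact permutation adjusted p = 0.018 and 0.020), whereas over all 10 libraries these r were 0.04 and −0.21. For Cd63 and Pdgfa the relation also passed without ALDHdim 2 alone (r = −0.78, exact permutation adjusted p = 0.043). Leaving out, for each relation, the 2 libraries farthest from the median of the first gene gave 10 of 54 relations and 6 of 36 pairs. Of these pairs, 5 were among Spp1, Gpnmb, Trem2, Arg1, Apoe and Cd63, and 1 was Trem2 with Pdgfa.

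**Figure D4:**
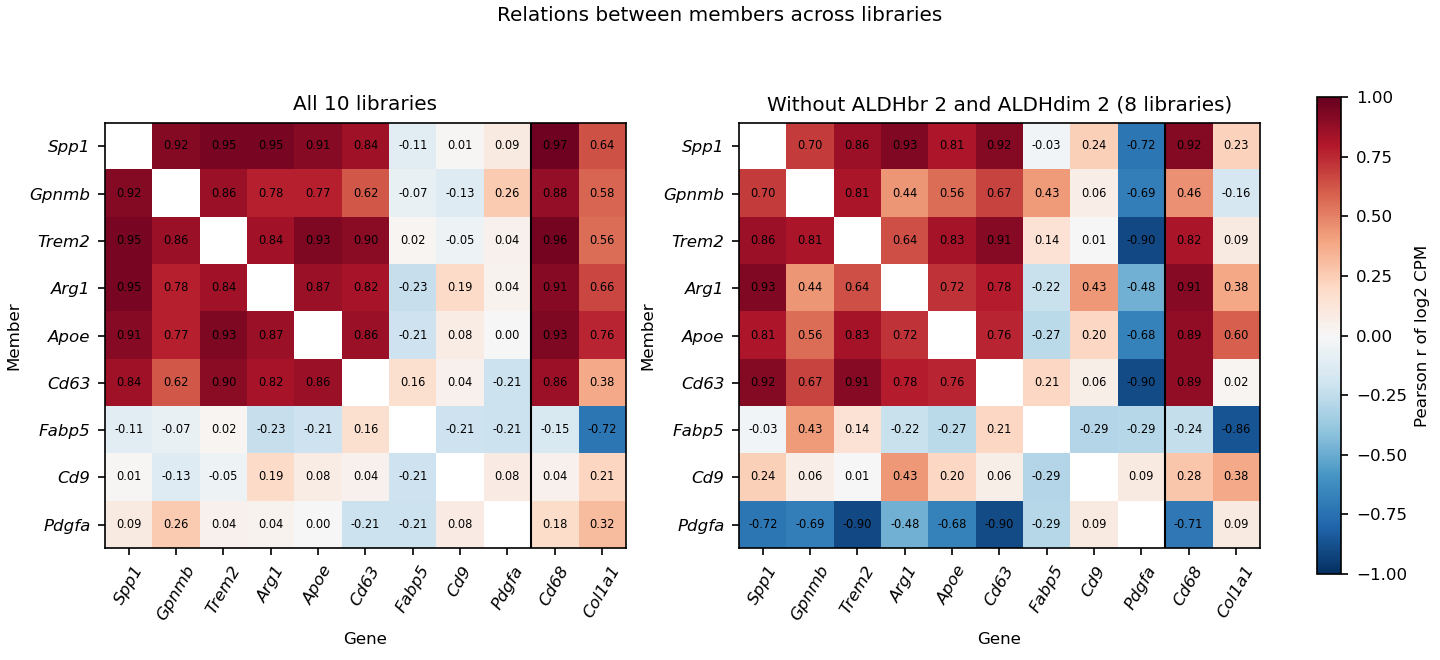
Pearson's r of log2 CPM between the 9 genes, and between each gene and Cd68 or Col1a1, over all 10 libraries (left) and over the 8 libraries other than ALDHbr 2 and ALDHdim 2 (right). On the left a block of high values joins Spp1, Gpnmb, Trem2, Arg1, Apoe and Cd63 with one another and with Cd68, and on the right Gpnmb is at 0.46 with Cd68, and Pdgfa is at −0.90 with Trem2 and with Cd63.

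The same 6 genes followed the macrophage marker Cd68, which was at 105, 62.6, 127, 152 and 141 CPM in ALDHbr libraries 1 to 5, and at 118, 48.9, 128, 168 and 188 CPM in ALDHdim libraries 1 to 5. With Cd68, r was 0.97 for Spp1, 0.96 for Trem2, 0.93 for Apoe, 0.91 for Arg1, 0.88 for Gpnmb and 0.86 for Cd63, with adjusted permutation p of 0.026 for Gpnmb and 0.0060 or less for the others. Without ALDHbr 2 and ALDHdim 2, r was 0.92 for Spp1, 0.91 for Arg1, 0.89 for Cd63 and 0.89 for Apoe, which passed. It was 0.82 for Trem2 (exact permutation adjusted p = 0.057) and 0.46 for Gpnmb (0.46), which did not. Fabp5, Cd9 and Pdgfa had r of −0.15, 0.04 and 0.18 with Cd68, so for 3 of the 9 genes no relation to this macrophage marker was detected.

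With Col1a1, 2 of the 9 genes, Apoe and Fabp5, had a relation past the threshold. Col1a1 was at 564, 147, 103, 570 and 487 CPM in ALDHbr libraries 1 to 5, and at 533, 168, 409, 815 and 888 CPM in ALDHdim libraries 1 to 5. ALDHbr 3 had the lowest Col1a1 of all and the 4th highest Spp1. Over the 10 libraries Spp1 and Col1a1 had r = 0.64 (rho = 0.65, adjusted permutation p = 0.10), and without ALDHbr 3 r was 0.96 (exact permutation adjusted p = 0.0032), whereas without ALDHbr 2 and ALDHdim 2 it was 0.23. Apoe (r = 0.76, rho = 0.79, adjusted permutation p = 0.031) and Fabp5 (r = −0.72, rho = −0.75, adjusted permutation p = 0.043) passed with Col1a1. With group means removed Apoe passed (r = 0.82, adjusted permutation p = 0.014) and Fabp5 did not (r = −0.69, adjusted permutation p = 0.053). Without the 2 libraries farthest from the median neither passed: r was 0.67 for Apoe without ALDHdim 2 and ALDHdim 5, and −0.38 for Fabp5 without ALDHbr 3 and ALDHdim 5, with 8 libraries left in each case. The Apoe relation missed the threshold without ALDHbr 2, ALDHdim 3, ALDHdim 4 or ALDHdim 5 alone, though r stayed between 0.71 and 0.87 over all 10 single omissions, and that of Fabp5 passed only when the library left out was ALDHbr 4, ALDHbr 5 or ALDHdim 2. Without ALDHbr 2 and ALDHdim 2 the relation of Fabp5 to Col1a1 had r = −0.86 and passed (exact permutation adjusted p = 0.031), and that of Apoe had r = 0.60 and did not (0.15).

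Set against macrophage markers, none of the 9 genes differed past the threshold between the groups. For each library the CPM of a gene was divided by the summed CPM of Adgre1, Cd68, Csf1r, Mertk and Fcgr1, which was 279 ± 61.8 in ALDHbr and 314 ± 99.4 in ALDHdim recipients and spanned 2.47-fold over the 10 libraries. The largest differences in the log2 ratio, ALDHbr minus ALDHdim, were −0.54 for Arg1 (exact permutation p = 0.37), 0.51 for Trem2 (0.37), 0.34 for Fabp5 (0.31) and 0.21 for Cd63 (0.28). Spp1 differed by −0.07 (exact permutation p = 0.94) and Apoe by 0.14 (0.26). None of the 9 two-sided exact tests over all libraries had p under 0.05, before any adjustment, where the smallest p possible was 0.0079. Single libraries moved these differences: that of Trem2 ran from 0.15 without ALDHdim 2 to 0.79 without ALDHbr 2, and that of Arg1 ran from −0.84 without ALDHdim 2 to −0.27 without ALDHdim 4. That of Fabp5 ran from 0.18 without ALDHbr 2 to 0.57 without ALDHdim 2. Gpnmb differed by 0.11 over all libraries, by 0.65 without ALDHbr 2 (unadjusted exact permutation p = 0.016) and by 0.43 without both ALDHbr 2 and ALDHdim 2 (0.029), and Cd63 by 0.34 without ALDHbr 1 (0.032). No ratio passed under any alternative once adjusted over the 9 genes (lowest adjusted exact permutation p = 0.14).

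The ratio also shows which genes moved in step with the markers. Apoe kept nearly to them, at 2.93 to 4.27 times the marker sum in the 10 libraries, a 1.46-fold span, and Cd63 spanned 1.92-fold. The Spp1 ratio was 2.52, 0.802, 6.48, 6.97 and 4.81 in ALDHbr libraries 1 to 5, and 3.32, 0.997, 2.76, 8.08 and 7.68 in ALDHdim libraries 1 to 5, a 10.1-fold span. So Spp1 varied more than the markers did, and its ratio was lowest in library 2 of both groups. The ratios of Arg1, Gpnmb and Trem2 spanned 9.33-fold, 8.85-fold and 6.503-fold, and those of Fabp5, Cd9 and Pdgfa 3.01-fold, 2.54-fold and 2.39-fold.

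**Figure D5:**
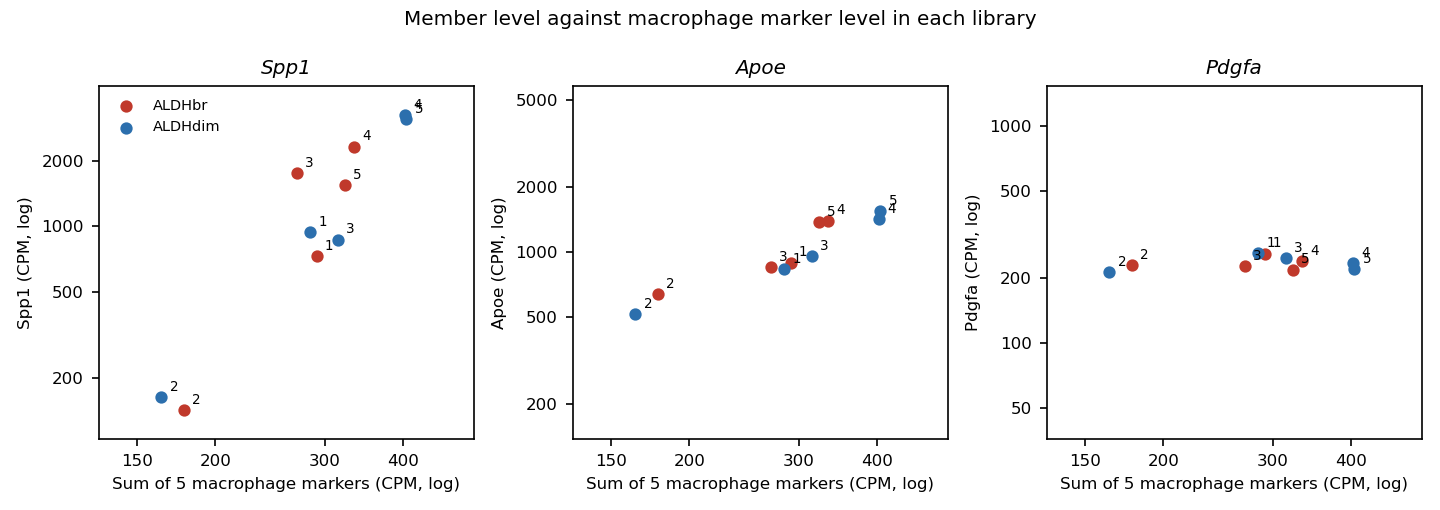
Levels of Spp1, Apoe and Pdgfa in each library against the summed level of the 5 macrophage markers, both in CPM on log axes that span the same number of folds in the 3 panels, with ALDHbr libraries in red, ALDHdim libraries in blue and label numbers beside the points. Spp1 runs more steeply than the marker sum, Apoe runs beside it and Pdgfa stays flat, and library 2 of each group has the lowest marker sum.

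The genes most like Spp1 across libraries were mainly lysosomal proteases. Among genes with a mean of at least 20 CPM, the highest r of log2 CPM with Spp1 over the 10 libraries belonged to Ctsb, Ctss and Ctsd, the cathepsins B, S and D, at 0.99, 0.99 and 0.99, then Mpeg1, a pore-forming protein of macrophages, at 0.97 and Cd68 at 0.97. Their r was 0.92 to 0.98 without ALDHbr 2 and ALDHdim 2. Ctss, for example, was at 740, 370, 1473, 1611 and 1406 CPM in ALDHbr libraries 1 to 5, and at 921, 304, 997, 1878 and 1950 CPM in ALDHdim libraries 1 to 5. Gpnmb differed: its nearest genes were Ndnf (0.97), Cdkn1a (0.97), Rnf122 (0.96), Osmr (0.95) and Pirb (0.95), and without the 2 libraries their r was 0.30 to 0.57. Of the remaining genes, Trem2 was most like Ccl17, a chemokine (0.98), Arg1 most like Anxa1, annexin A1 (0.98), and Cd63 most like Cstb, the cathepsin inhibitor cystatin B (0.98). Apoe was most like Timp1, an inhibitor of matrix metalloproteases (0.98), and Fabp5 most like Arl5a, a small GTPase (0.98). Cd9 was most like Liph, a lipase (0.90), and Pdgfa most like Srd5a3, an enzyme of dolichol synthesis (0.85). These r are descriptions of the genes that came out highest among many.

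No gene of the wider pathways passed the threshold between the groups either. Over 19 lists of related genes and cell markers, 167 genes were tested and 0 had an adjusted p under 0.05 in edgeR's test. Of all 10844 genes tested, 402 (3.71%) had an unadjusted p under 0.05, and of these 167 genes 1 did. That gene was Itgb3, the integrin beta 3 chain of an osteopontin receptor, at 7.28 ± 5.07 CPM after ALDHbr transfer and 15.4 ± 3.33 CPM after ALDHdim transfer (log2 fold change −0.89, SE 0.34, unadjusted p = 0.017, adjusted p = 0.999). ALDHbr 1, at 15.2 CPM, lay within the ALDHdim range of 11.1 to 19.2 CPM, and the other 4 ALDHbr libraries lay below it. The lowest, ALDHbr 2, was at 1.96 CPM, the level that 1 count gave for Arg1 in that library. Of the 10 osteopontin receptor genes, 2 had higher and 8 lower estimates in ALDHbr recipients, with a median log2 fold change of −0.18, beside 0.0108 over all genes tested. Cd44, the hyaluronan and osteopontin receptor, differed by −0.33 (SE 0.20) and Itgb1, the integrin beta 1 chain, by −0.21 (SE 0.13).

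Of 10 tested genes of Trem2 signalling, 3 had higher and 7 lower estimates (median −0.10). Tyrobp, the adaptor of Trem2, was at 178, 213, 326, 312 and 342 CPM in ALDHbr libraries 1 to 5, and at 205, 164, 289, 306 and 408 CPM in ALDHdim libraries 1 to 5, a log2 fold change of 0.00 (SE 0.24). Adam17, the protease that sheds Trem2, differed by −0.21 (SE 0.22) and the kinase Syk by −0.15 (SE 0.21). Of 30 lipid and lysosome genes of macrophages, 15 had higher and 15 lower estimates (median 0.0041). Apoc1, an apolipoprotein, was at 52.3 ± 23.6 CPM after ALDHbr transfer and 31.1 ± 13.4 CPM after ALDHdim transfer (log2 fold change 0.66, SE 0.37), Ctsk (cathepsin K) differed by 0.46 (SE 0.29) and Npc2, a lysosomal cholesterol carrier, by 0.07 (SE 0.15). The 4 MiT/TFE factors divided evenly, with Tfec at 0.27 (SE 0.35) and Tfe3 at −0.17 (SE 0.21). Fabp4, the tested relative of Fabp5, differed by 0.01 (SE 0.18).

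Of 6 tested genes of the PDGF pathway, 1 had a higher and 5 lower estimates (median −0.17), with the coreceptor Nrp1 at −0.31 (SE 0.17) and the receptor Pdgfrb at −0.30 (SE 0.37). Of 10 genes of arginine, polyamine and proline use, 5 were higher and 5 lower (median 0.02). Among them Oaz1, which restrains polyamine synthesis, was at 318 ± 62.5 CPM after ALDHbr transfer and 258 ± 19.5 CPM after ALDHdim transfer (log2 fold change 0.30, SE 0.14), and Ass1, which rebuilds arginine, differed by −0.34 (SE 0.22). Of 10 genes of alternative activation, 4 were higher and 6 lower (median −0.13). Mrc1, the mannose receptor, differed by −0.27 (SE 0.18) and Retnla, a secreted protein induced by interleukin 4, by −0.35 (SE 0.55). Of 9 other tetraspanins, 8 were higher and 1 lower (median 0.03), and Cd81 was at 0.05 (SE 0.13).

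Markers of the cells that whole lung holds moved with the libraries as well. The 14 pan-macrophage markers had 3 higher and 11 lower estimates in ALDHbr recipients (median −0.09), alveolar macrophage markers 5 higher and 4 lower (0.03) and monocyte markers 2 higher and 7 lower (−0.16). In each of these lists every marker had counts. The genes listed as pan-macrophage markers summed to 13063 to 23361 CPM in ALDHbr and 13074 to 17933 CPM in ALDHdim libraries. Most of this sum was Lyz2 (15694 ± 3784 CPM in ALDHbr, 13499 ± 945 CPM in ALDHdim recipients). The sum was lowest in ALDHdim 2 among ALDHdim libraries, but at 19663 CPM in ALDHbr 2 it exceeded ALDHbr 1, 4 and 5. In this it differed from the sum of 5 macrophage markers, which was lowest in library 2 of both groups. Whether a sum made up mostly of Lyz2 follows macrophages or other lung cells was not tested. The genes listed as alveolar macrophage markers summed to 366 to 612 CPM in ALDHbr and 427 to 502 CPM in ALDHdim libraries. This sum was highest in ALDHbr 2, where Spp1 was lowest. Car4 had the highest mean of the list, 139 CPM after ALDHbr transfer and 124 CPM after ALDHdim transfer. Marco averaged 14.5 and 11.1 CPM, and Siglecf 10.1 and 9.94 CPM, in the same order. Whether the sum follows alveolar macrophages or other lung cells was not tested. The summed alveolar type 2 level was 26224 to 52624 CPM in ALDHbr and 22904 to 43023 CPM in ALDHdim libraries, and in both groups library 2 held the most. The summed fibroblast and matrix level was 3998 to 7565 CPM in ALDHbr and 4033 to 9066 CPM in ALDHdim libraries, and in both groups library 2 held the least (12 of 13 estimates lower in ALDHbr recipients, median −0.30). Neutrophil markers had 1 higher and 6 lower estimates (median −0.71), with a sum of 144 to 264 CPM in ALDHbr and 171 to 1010 CPM in ALDHdim libraries, the highest being ALDHdim 2. Endothelial markers summed to 1147 to 2027 CPM in ALDHbr and 995 to 2332 CPM in ALDHdim libraries (2 higher, 5 lower), and alveolar type 1 markers to 5525 to 9005 CPM in ALDHbr and 5137 to 7497 CPM in ALDHdim libraries (6 higher, 2 lower). Of the markers of type 2 innate lymphoid cells, 3 were tested and all 3 were lower, and of those of mast cells and basophils 0 had enough counts. The part of these cell markers in the levels of the 9 genes was not tested.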

How the data were processed

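RNA of 10 lung samples of mice given bleomycin was sequenced by BRB-seq, per the labels' protocols: an oligo-dT primer gave each sample its barcode at reverse transcription, and the pool was then amplified, with a 10-nt UMI and a 9-nt barcode in read 1 and an 81-nt insert in read 2. Reads of this 3' method do not grow in number with transcript length. The builds GRCm38 and GRCh38 and the tools HISAT2 2.2.1, featureCounts 2.0.1, Trim Galore 0.6.7, DESeq2 and UMI-tools are named, without roles, in the submitters' processing notes. The deposited table gives unnormalized whole-number counts for each gene. The labels say nothing of collapsing by UMI or of strand in counting (both not given in the sources used here), and Poisson intervals cover counting error only.

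Genes were kept by filterByExpr (minimum count 10), which left 10844 of 33347, given TMM factors, and tested by the quasi-likelihood test of edgeR 4.0.16 (robust glmQLFit and glmQLFTest; R 4.3.3). P-values were adjusted by Benjamini-Hochberg over all genes tested, with a threshold of 0.05. In 3 simulations the test recovered 20% of 1.5-fold, 67.3% of 2-fold, 88% of 3-fold and 92.7% of 4-fold changes. The changed genes were drawn from all genes tested, so these shares are not those for genes as variable as Spp1, Arg1, Trem2 and Gpnmb. CPM are counts over the scaled library size of tested genes. Ratios to 5 macrophage markers used a prior of 1 CPM and exact permutation over 252 assignments of the libraries. Correlations used log2 CPM and 100000 permutations, exact where 9 or fewer libraries were left. Ranks for Spearman's rho and the Poisson intervals came from scipy 1.17.1. Alternatives were DESeq2 size factors, DESeq2 1.42.0, limma-voom (limma 3.58.1) with sample weights, other count filters, other marker sums, the replicate number as a block, and leaving out libraries. Gene positions are from GENCODE M21 on GRCm38 and promoter windows from RefSeq.

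The 9 genes and the gene lists were chosen with earlier results of these data known. Besides the 9 genes, the text names from each list up to 3 genes of smallest p and the 1 of highest level. It also names the 5 genes most like Spp1 and Gpnmb and the 1 most like each other gene, among genes of at least 20 CPM and without predicted genes. Not every gene the rule allows is named. Figures were drawn with matplotlib 3.10.9.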

Additional observations from a re-analysis of the deposited data

Results flagged for a closer look

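Of 36 sets of 5 values (the level or the marker ratio of a gene among the libraries of 1 group), 3 held a value set off from the other 4 by a gap that made up most of the range (Dixon's test, over 0.71 of the range), each time that of ALDHbr 2. Chance flags about 1 set in 20, or 1.8 of 36. Gpnmb was at 5.87 CPM in ALDHbr 2, while ALDHbr 1, 3, 4 and 5 lay at 62.7 to 78.9 CPM (share of range 0.778). Cd9 was at 643.5 CPM in ALDHbr 2, against 569 to 588 CPM in the others (0.745). The ratio of Cd9 to the 5 macrophage markers was 3.62 in ALDHbr 2, against 1.74 to 2.11 in the others (0.805). ALDHbr 2 was the library of lowest depth, at 588063 counts, and its part in these values was not tested.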

How the results depend on the processing

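Genes past the threshold numbered 0 except when no low-count filter was used, where there were 185, none of them among the 9 genes. None of 162 alternative fold changes of the 9 genes passed (lowest adjusted p 0.434), though 29 changed sign, as did 18 of 135 alternative marker ratios, of which 0 passed after adjustment (3 had an unadjusted p under 0.05). The log2 fold change of Cd63 was −0.0229 and of Pdgfa −0.0583 without the low-count filter. Pdgfa was at −0.0042 with DESeq2 and −0.0471 with limma-voom, and Apoe at 0.0945 with limma-voom. Without ALDHbr 3 and 5 Trem2 was at −0.0923 and Cd63 at −0.10. Without ALDHbr 2 and ALDHdim 2, chosen after seeing the data, Cd63 was at −0.0349 and Pdgfa at −0.0233, 12 of 54 relations and 7 of 36 pairs passed, and Trem2 with Pdgfa had r = −0.90. That r was also −0.90 without the 2 libraries farthest from the median, where 10 relations and 6 pairs passed. Among the 15 pairs of Spp1, Gpnmb, Trem2, Arg1, Apoe and Cd63, 5 passed in each of these 2 settings, against 14 over all libraries. With C1qa, C1qb and C1qc as the markers the log2 ratio differences were −0.11 for Gpnmb, −0.18 for Cd9, −0.0123 for Cd63, −0.0741 for Apoe and −0.0837 for Pdgfa, and with Cd68 alone −0.0154 for Cd9. The cause of each was not tested.

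Leaving out each library in turn gave log2 fold changes of −0.67 to 0.0296 for Spp1, −6.9e-05 to 0.48 for Gpnmb, −0.10 to 0.66 for Trem2, −0.0892 to 0.19 for Cd63, −0.20 to 0.16 for Apoe and −0.0376 to 0.0423 for Pdgfa. Those of Fabp5 (0.15 to 0.28), Cd9 (−0.13 to −0.04) and Arg1 (−1.33 to −0.36) kept their sign. Ratio differences were −0.53 to 0.44 for Spp1, −0.11 to 0.65 for Gpnmb, −0.14 to 0.24 for Cd9 and −0.0109 to 0.32 for Pdgfa, and those of Trem2 (0.15 to 0.79), Fabp5 (0.18 to 0.57), Cd63 (0.11 to 0.34), Apoe (0.0853 to 0.20) and Arg1 (−0.84 to −0.27) kept their sign. The r of Trem2 with Pdgfa was −0.48 to 0.18, that of Fabp5 with Col1a1 −0.84 to −0.53 (not past the threshold in 7 of 10) and that of Apoe with Col1a1 0.71 to 0.87 (not past it in 4). Relations past the threshold numbered 20 to 25 and pairs 14 to 15.

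Libraries of both groups share replicate numbers, which were not taken as pairs. Deviations of same-numbered libraries had r of 0.06 for number 1, under the limit of 0.1 set for treating numbers as pairs, and 0.15 to 0.37 for numbers 2 to 5, and 7 of 10 libraries correlated best with their own number. With the replicate block 0 genes passed, Apoe was at 0.0092 and Arg1 at −0.92 (unadjusted p 0.0050, adjusted p 0.73 in edgeR), and no call changed. The marker ratios of Trem2 and Apoe were higher in ALDHbr in all 5 same-numbered pairs (exact permutation p = 0.0625 for each, the smallest that 5 pairs allow). Depth limits Arg1, Gpnmb and Trem2 in ALDHbr 2, where they held 1, 3 and 6 counts.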
